A study of Mus musculus with 16 samples.

Results

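The Zfp36 family of mRNA decay factors was followed in astrocyte ribosome-bound RNA and in whole-tissue RNA of the mouse somatosensory cortex. Its 3 members, Zfp36, Zfp36l1 and Zfp36l2, are the rows of those names among 24060 genes in every library. Each passed the filter on low values (a mean above 1 CPM, the reads of a gene scaled to the total of its library). Zfp36 did not pass the alternative filters at a mean of 5 CPM or 1 FPKM. The members were chosen from earlier results of these data, because Zfp36l1 and Zfp36l2 were lower in IP after stress. The stress comparison in IP is therefore given for them as a description, with no test. The mice carried Aldh1l1CreERT2 and RiboTag on a C57BL/6J background, were 3 months old, and all received tamoxifen, the controls included. Cre under the Aldh1l1 promoter then adds an HA tag to the ribosomal protein Rpl22 in astrocytes, and the immunoprecipitate with anti-HA (IP) is set against the cleared lysate (INPUT), which holds all cell types. Stressed mice swam for 20 min and spent 90 min in the home cage before the tissue was taken, and naïve mice stayed in the home cage. Each of the 4 groups (IP and INPUT, naïve and stressed) had 4 libraries.

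Proteins of this family have a tandem pair of CCCH zinc fingers with which they bind AU-rich elements in the 3′ untranslated regions (3′ UTRs) of mRNAs. They bring in the CCR4-NOT complex, which shortens the poly(A) tail, after which the mRNA is decapped or degraded by the exosome. Zfp36, also called tristetraprolin, is an immediate early gene that limits cytokine mRNAs, and its protein can be phosphorylated by the p38 target kinase MK2 and then held by 14-3-3 proteins. Zfp36l1 and Zfp36l2 are paralogues with the same zinc fingers, and a further rodent paralogue, Zfp36l3, is known from the placenta.

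The motif which the family binds is also in the 3′ UTRs of its own mRNAs, and for that reason these sites are shown. The heptamer TATTTAT and the nonamer TTATTTATT, which contains it, were searched on the mRNA strand of the GENCODE M21 transcripts linked to RefSeq. Each member held 3 heptamers, 1 of them inside a nonamer. Among 19278 genes, the longest such 3′ UTR held the heptamer in 25.6% and the nonamer in 6.75%. Among genes with 3′ UTRs within 10% of the length of that of Zfp36 (774 bases), 4.44% held the nonamer, and the shares were 9.48% for the length of Zfp36l1 (1835 bases) and 9.65% for that of Zfp36l2 (1822 bases). The windows of 30 bases below are written 5′ to 3′ in the letters of the DNA, with the motif in capitals. All lie in the last exon, on the minus strand of GRCm38, at chr7:28376958-28376987 and chr7:28376926-28376955 for Zfp36, at chr12:80108422-80108451, chr12:80108381-80108410 and chr12:80108167-80108196 for Zfp36l1, and at chr17:84184914-84184943, chr17:84184866-84184895 and chr17:84184680-84184709 for Zfp36l2.
Zfp36 window 1: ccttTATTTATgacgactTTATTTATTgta
Zfp36 window 2: aagattttatagTATTTATatatattgggt
Zfp36l1 window 1: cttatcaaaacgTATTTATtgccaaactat
Zfp36l1 window 2: taattttgttcaTATTTATcgggatgacaa
Zfp36l1 window 3: aaactgttggaTTATTTATTttagaaattc
Zfp36l2 window 1: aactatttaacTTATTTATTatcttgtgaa
Zfp36l2 window 2: ttgtccatactgTATTTATcgagtatgatg
Zfp36l2 window 3: gattgtatgtaaTATTTATttcattaattt
In Zfp36 the nonamer and a further heptamer shared 1 window, whereas in Zfp36l1 and Zfp36l2 each site had a window of its own. A match is a run of letters and was not tested as a binding site.

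The genes are on 3 chromosomes, each with 2 exons on the minus strand: Zfp36 at chr7:28376784-28380253, Zfp36l1 at chr12:80107754-80113013 and Zfp36l2 at chr17:84183931-84187947 (GENCODE M21, GRCm38). On the opposite strand each is overlapped by a noncoding gene (Gm44710, Gm26669 and AC132455.1) that has no row in the tables, and since the sources do not state whether counting used strand, reads from either strand cannot be told apart. The RefSeq promoter table held Zfp36 and Zfp36l1, whose means lay in opposite directions after stress in IP, and the 250 bases before each start are shown for that contrast. The window of Zfp36 lies within the longer GENCODE model of that gene. Motifs searched on both strands were the TATA box as TATAAA, the core of the cAMP response element as TGACG and a loose AP-1 motif as TGANTCA, with N any base. The core of the glucocorticoid response element as AGAACA and the CArG box of serum response factor were also searched. Capitals mark the matches. They are at chr7:28379229-28379478 and chr12:80113014-80113263, both on the minus strand of GRCm38.p6.
Zfp36 promoter: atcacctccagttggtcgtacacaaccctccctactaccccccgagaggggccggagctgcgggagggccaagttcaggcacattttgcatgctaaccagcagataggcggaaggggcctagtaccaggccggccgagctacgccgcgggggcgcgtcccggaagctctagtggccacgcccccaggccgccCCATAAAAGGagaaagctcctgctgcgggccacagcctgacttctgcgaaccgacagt
Zfp36l1 promoter: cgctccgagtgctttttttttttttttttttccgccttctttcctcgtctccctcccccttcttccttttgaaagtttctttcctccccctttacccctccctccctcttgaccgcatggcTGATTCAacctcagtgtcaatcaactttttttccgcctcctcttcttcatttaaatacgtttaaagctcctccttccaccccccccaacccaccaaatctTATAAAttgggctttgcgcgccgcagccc
The Zfp36 window held 1 CArG box, which was found in 1.47% of 32851 promoters, and none of the other motifs. The Zfp36l1 window held 1 match to the loose AP-1 motif, read as TGATTCA (6.75% of promoters had a match), and 1 TATAAA (12.4%). Its content of G and C was 48.4%, against 64.8% for Zfp36 and a median of 52.4% over all promoters.

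Library totals were 16392876 to 25814364 reads (median 21167241), and 3 reads corresponded to at most 0.183 CPM. The 6 astrocyte markers summed to between 79510 and 91140 CPM in IP and between 4422 and 5351 CPM in INPUT, and all 6 were higher in IP in naïve and in stressed mice. The 5 neuronal markers summed to 327.6 to 538.3 CPM in IP and to 9474 to 11100 CPM in INPUT, and no marker of any of the 5 cell types tested was at 0 throughout a group. The 10 most abundant genes took 18.1% to 19.6% of reads in IP and 3.65% to 3.92% in INPUT. Fewer cells of a type and less RNA per cell cannot be told apart in such tissue RNA.

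Zfp36l2 was the most abundant member, followed by Zfp36l1, and Zfp36 was far below both. Per kilobase (kb) of the RefSeq-linked transcript, Zfp36l2 stood at 43.1 ± 3.68 CPM per kb (SD, n = 4) in naïve IP, Zfp36l1 at 21.6 ± 1.22 and Zfp36 at 1.04 ± 0.335. Within single libraries of all groups, the level of Zfp36l2 per kb was 1.36 to 2.31 times that of Zfp36l1, and that of Zfp36l1 was 2.75 to 31.3 times that of Zfp36. The order was thus the same in all 16 libraries. The ratio to Zfp36 depends on the length given to it: with all GENCODE exons of Zfp36 (3470 bases) in place of 1765 bases, the mean ratio of Zfp36l1 to Zfp36 in naïve IP was 43.8 in place of 22.3. Among 12512 genes with a mean above 1 CPM in naïve IP, not corrected for length, Zfp36l2 was at percentile 91.7 of CPM, Zfp36l1 at 78.8 and Zfp36 at 6.0. In naïve INPUT, they were at percentiles 50.3, 34.0 and 5.1 of 13590 genes. Zfp36l3 had 0 reads in 15 libraries and 1 read in a stress INPUT library, which is under the floor of 3 reads.

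Zfp36l2 was measured in naïve IP at 161.6, 134.0, 151.9 and 161.6 CPM in replicates 2, 8, 11 and 13. In stress IP, replicates 4, 5, 6 and 15 had 95.7, 77.6, 82.4 and 100.5 CPM. All stressed libraries were below all naïve ones in IP. In naïve INPUT, it had 24.7, 25.4, 24.5 and 29.04 CPM in replicates 3, 7, 14 and 16. In stress INPUT, replicates 1, 9, 10 and 12 had 14.1, 22.3, 22.7 and 22.5 CPM, and replicate 1 was the lowest of the 16 libraries. No pair of the 4 groups overlapped, and their order from the highest was naïve IP, then stress IP, naïve INPUT and lastly stress INPUT. Over all genes tested, IP lay wholly above INPUT in 22.4% in naïve and in 22.4% in stressed mice. Stress lay wholly below naïve in 2.62% of genes in IP and in 1.44% in INPUT. The step from naïve to stress IP is the one that chose the members.

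Zfp36l1 followed the same order of groups, also with no overlap, and the shares over all genes given for Zfp36l2 apply to it too. Its level in the naïve IP replicates 2, 8, 11 and 13 was 59.0, 66.3, 65.8 and 66.7 CPM. The stress IP replicates 4, 5, 6 and 15 had 41.3, 45.0, 35.8 and 43.6 CPM. In both groups of IP libraries these values rest on 785 to 1722 reads. It was at 13.4, 13.5, 11.9 and 13.2 CPM in the naïve INPUT replicates 3, 7, 14 and 16, and at 8.78, 11.2, 10.9 and 9.32 CPM in the stress INPUT replicates 1, 9, 10 and 12.

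Zfp36 behaved differently, with low values whose groups all overlapped. In naïve IP, its replicates 2, 8, 11 and 13 had 1.47, 1.25, 2.08 and 2.56 CPM. In stress IP, the values in replicates 4, 5, 6 and 15 were 3.97, 3.55, 2.60 and 1.73 CPM. The first 3 of these were above all naïve IP libraries, and replicate 15 was within the naïve range. In the naïve INPUT replicates 3, 7, 14 and 16 it had 1.69, 1.41, 2.14 and 1.68 CPM, and in the stress INPUT replicates 1, 9, 10 and 12 it had 1.89, 2.01, 2.05 and 1.71 CPM. These values rest on 24 to 89 reads, and counting alone would give a coefficient of variation of 12.4% to 17.5% in the groups, against a measured one of 8.0% to 33.8%.

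**Figure D1:**
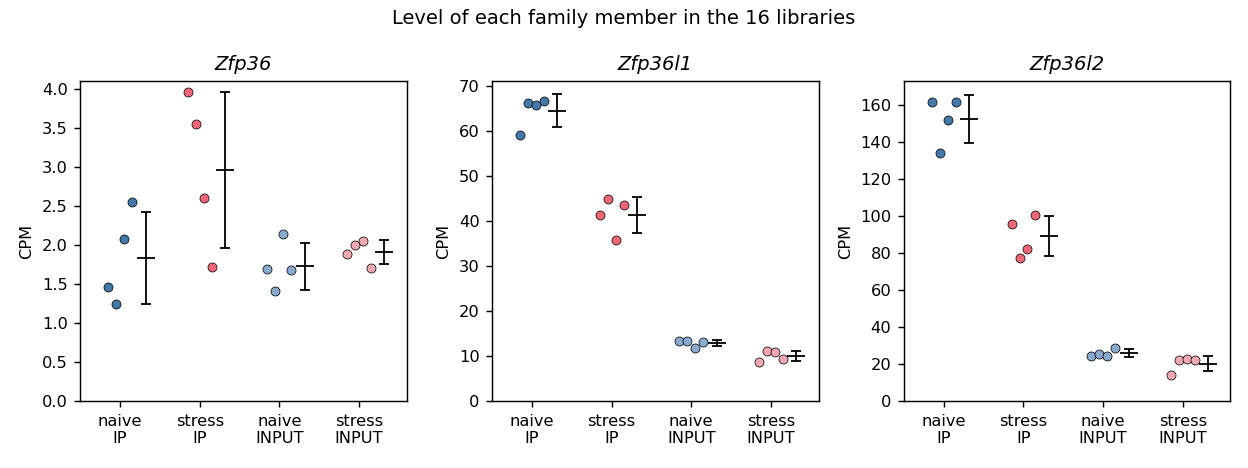
CPM (y axis, linear from 0, with its own range for each gene) of Zfp36, Zfp36l1 and Zfp36l2 in the 4 libraries of each group, with the mean ± SD to the right of the points. The groups are apart for Zfp36l1 and Zfp36l2 and overlap for Zfp36. Over all genes tested, 22.4% have IP wholly above INPUT in each state.

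Whether the members are enriched in astrocyte ribosome-bound RNA was asked by comparing IP with INPUT. Zfp36l1 and Zfp36l2 were enriched and Zfp36 was not called. In naïve mice, the log2 ratio of IP to INPUT was 2.30 for Zfp36l1 (SE 0.07, a 4.93-fold higher level, adjusted p = 1.9e-12) and 2.55 for Zfp36l2 (SE 0.08, 5.85-fold, adjusted p = 1.2e-12) in limma over all genes with Benjamini-Hochberg adjustment. For Zfp36 it was 0.05 (SE 0.24, 95% interval −0.48 to 0.57, adjusted p = 0.86). In the same fit, 87.7% of 13339 genes were called, most of them lower, and over all genes the log2 ratio had a median of −0.64. Relative to that median, Zfp36l2 stood 3.19 higher, Zfp36l1 2.94 higher and Zfp36 0.68 higher on the log2 scale. With libraries rescaled by their median ratio, Zfp36 was called in naïve mice at a log2 ratio of 0.65 (adjusted p = 0.026, against 0.026 to 1.0 over all its alternatives).

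The enrichment was also seen in stressed mice, where 86.1% of genes were called. The log2 ratio was 2.03 for Zfp36l1 (SE 0.11, 4.10-fold, adjusted p = 1.4e-09) and 2.14 for Zfp36l2 (SE 0.15, 4.41-fold, adjusted p = 2.1e-08). For Zfp36 it was 0.54 (SE 0.25, 95% interval 0.00 to 1.08, adjusted p = 0.057), and 1.18 relative to the median of all genes. Without stress IP replicate 15, Zfp36 was called, with a log2 ratio of 0.77 (adjusted p = 0.0041), and over its alternatives the adjusted p was between 0.00071 and 0.17. Zfp36l1 and Zfp36l2 had IP above INPUT in all libraries in both states, with an exact permutation p of 0.0286, the smallest that 4 against 4 can give. Over all genes tested, 22.4% had IP wholly above INPUT in naïve mice, and 22.4% in stressed mice.

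The ratio of paralogues within a library is set by their reads, whatever the scaling between libraries, apart from the pseudocount. In naïve mice, Zfp36l1 over Zfp36 was higher in IP than in INPUT by 2.26 on the log2 scale (SE 0.26), and Zfp36l2 over Zfp36 by 2.50 (SE 0.24). In stressed mice the differences were 1.49 (SE 0.27) and 1.60 (SE 0.35). All 4 had groups without overlap and an exact permutation p of 0.0286, two-sided, with 0.0429 after adjustment over 6 tests. The ratio of Zfp36l2 to Zfp36l1 differed between IP and INPUT by 0.25 (SE 0.11, adjusted exact p = 0.103) in naïve mice and by 0.11 (SE 0.16, adjusted exact p = 0.543) in stressed mice, and these groups overlapped. As shares of the summed level per kb, Zfp36l2, Zfp36l1 and Zfp36 made up 65.5%, 32.9% and 1.57% of the family in naïve IP, and 57.8%, 34.4% and 7.77% in naïve INPUT.

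**Figure D2:**
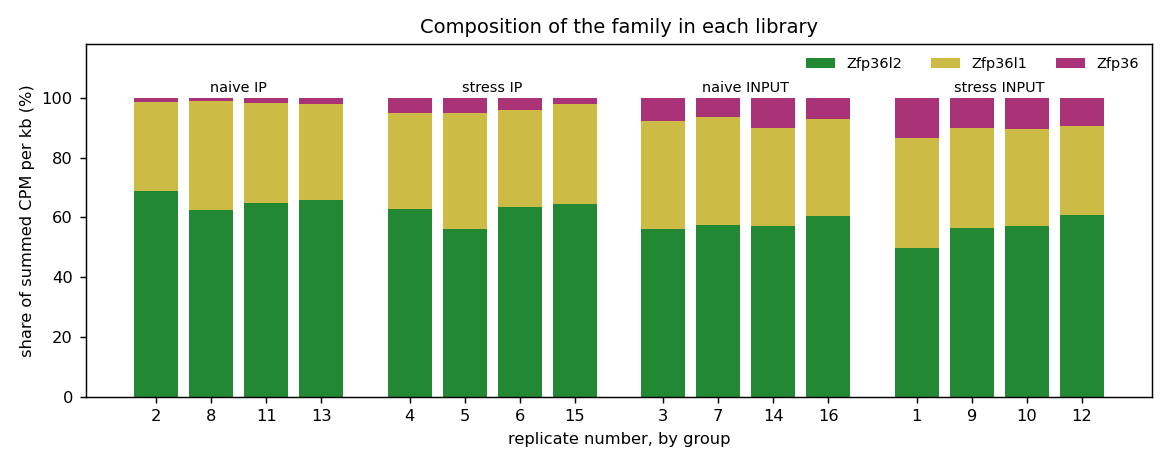
Share of each member (y axis, %) in the summed CPM per kb of the 3 genes, one bar for each of the 16 libraries, grouped by state within IP (left) and INPUT (right), with replicate numbers below. Zfp36 takes 1.17% to 2.08% in naïve IP and 9.27% to 13.4% in stress INPUT, and Zfp36l2 has the largest share in every bar.

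After stress, Zfp36l1 and Zfp36l2 had lower values in IP, and Zfp36 had a higher mean with overlapping groups. These values chose the members and are given as a description. The log2 difference between stress and naïve IP was −0.78 for Zfp36l2 (SE 0.09), a level 1.71-fold lower, and −0.64 for Zfp36l1 (SE 0.08), 1.56-fold lower. For Zfp36 it was 0.64 (SE 0.29), 1.56-fold higher, on 28 to 89 reads per IP library, so its place among all genes is less certain. Among 12501 genes, whose median was −0.0036, Zfp36l2 was at percentile 0.17 of this difference, Zfp36l1 at 0.46 and Zfp36 at 99.5. In that comparison 0.44% of genes were called, 27 higher and 28 lower, and 2.62% had stress wholly below naïve. The summed level of the 3 members per kb was 65.8 ± 3.604 CPM per kb (SD, n = 4) in naïve IP and 40.8 ± 3.41 in stress IP. Zfp36 took 4.15% of it in stress IP (range 2.22% to 5.21%), and the shares of Zfp36l1 and Zfp36l2 were 34.1% and 61.8%. The log2 ratio of Zfp36l2 to Zfp36l1 was 1.24 in naïve IP and 1.10 in stress IP, with overlapping groups. That of Zfp36l1 to Zfp36 was 5.11 and 3.82, without overlap. Both ratios use the values that chose the members, so their overlap or lack of it is a description too.

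In INPUT, whose libraries were not in the comparison that chose the members, Zfp36l1 and Zfp36l2 also lay lower after stress. Neither passed the adjustment over all genes. Per the study's methods, each input came from the lysate of the same mouse as its IP. INPUT thus re-measures the mice in which the members were chosen, and its p-values are not free of that choice. For Zfp36l1 the mean was 10.0 ± 1.17 CPM in stress and 13.0 ± 0.73 CPM in naïve INPUT (SD, n = 4), a log2 difference of −0.38 (SE 0.11, 95% interval −0.60 to −0.15) with adjusted p = 0.49 in limma. For Zfp36l2 it was 20.4 ± 4.20 against 25.9 ± 2.12 CPM, a difference of −0.37 (SE 0.14, 95% interval −0.66 to −0.08) with adjusted p = 0.86. Taken singly, both had all 4 stressed libraries below all naïve ones, with an exact permutation p of 0.0286, and 1.44% of 13577 genes had groups apart in this direction. Zfp36 differed by 0.15 (SE 0.20, 95% interval −0.27 to 0.57, adjusted p = 0.99, exact p = 0.314). Across all genes 0.0442% were called. Without stress INPUT replicate 1, the difference of Zfp36l2 was −0.20 and that of Zfp36l1 −0.31.

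The ratio of Zfp36l1 to Zfp36 in INPUT was lower after stress by 0.52 on the log2 scale (SE 0.17, exact p = 0.0286, adjusted over 3 tests 0.0857), and that of Zfp36l2 to Zfp36 by 0.52 (SE 0.22, exact p = 0.0571, adjusted 0.0857). Zfp36l2 to Zfp36l1 differed by 0.01 (SE 0.13, exact p = 0.943). Marker sums in INPUT are given beside these values, and limma called no marker of the 5 cell types after stress there. The astrocyte sum was 4966 to 5351 CPM in naïve and 4422 to 5092 CPM in stress INPUT, with the lowest in stress replicate 1. The neuronal sum was 9601 to 10040 CPM in naïve and 9474 to 11100 CPM in stress INPUT. Its mean was higher after stress, at 10010 against 9798 CPM. The 5 oligodendrocyte markers summed to 1494 to 1646 and to 1330 to 1518 CPM, the 5 microglial ones to 180.8 to 196.0 and to 154.0 to 188.6 CPM, and the 6 endothelial and mural ones to 90.6 to 119.0 and to 75.9 to 104.3 CPM. In IP, the neuronal sum was 415.9 to 538.3 CPM in naïve and 327.6 to 479.4 CPM in stressed mice. Of the endothelial and mural list, Pdgfrb was higher in IP than in INPUT while the other 5 were lower, and it carried most of the sum in IP, with 124.0 to 149.2 CPM in naïve and 89.0 to 134.4 CPM in stressed mice. The other 5 summed to 17.4 to 19.3 and to 10.95 to 20.1 CPM. None of the defining markers was at 0. Their part in the differences of the members was not tested. The comparisons of IP with INPUT and of stress with naïve share libraries, so their values are given side by side and not as independent results.

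**Figure D3:**
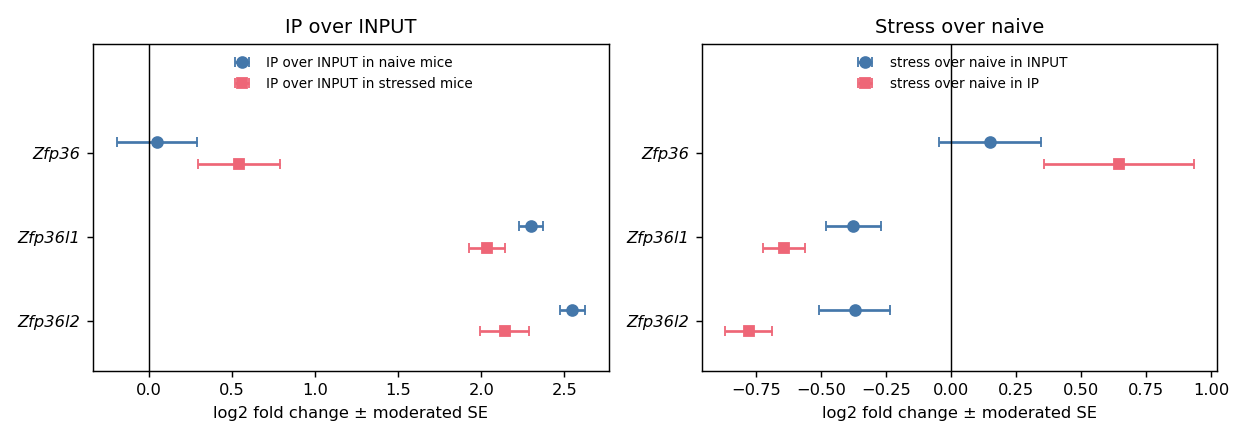
Log2 fold change ± moderated SE (x axis) of the 3 members for IP over INPUT in naïve and stressed mice on the left, and for stress over naïve in INPUT and IP on the right. Zfp36l1 and Zfp36l2 lie between 2.03 and 2.55 on the left and below 0 on the right, where Zfp36 lies above 0.

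The genes whose profile over the 16 libraries was most like that of a member were taken by the smallest root mean square difference of centred log2(CPM + 0.1) values among 13340 others. For Zfp36l2 the closest gene was Zfp36l1 (0.19), followed by Sall1 (0.22) and Gas1 (0.22). For Zfp36l1 they were Sall1 (0.19), Zfp36l2 (0.19) and Snx33 (0.21). For Zfp36 they were Wbp1l (0.26), Mat2a (0.28) and Cdo1 (0.28), and its paralogues ranked 9604th and 10170th. Over the 8 IP libraries alone, with 12500 others, the closest to Zfp36l1 included Zic5 (0.10) and Rara (0.11), and those to Zfp36l2 were Zfp217, Axin2 and Bahcc1 (0.13 to 0.14). Zfp36l2 ranked 46th for Zfp36l1, and Zfp36l1 ranked 18th for Zfp36l2. For Zfp36 in IP they were Zfp959, Wipf3 and Cdk5rap1 (0.27 to 0.28). These points share groups and libraries, and the ranks are a description. The fall in stress IP that chose Zfp36l1 and Zfp36l2 also enters these distances, so their closeness is in part set by that choice.

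Decay machinery, other RNA-binding proteins of AU-rich elements and decay, upstream regulators and reported targets were listed as 107 symbols in 8 lists, of which 106 had a row. The counts below are for this mixed set. In IP, 93 were tested and limma called 0 (0.44% of all genes were called), limma-voom called 0, and the smallest adjusted p was 0.22. An unadjusted p under 0.05 was found for 12 of them (12.9%), against 8.27% of all genes. In INPUT, 95 were tested and both tools called 0 (0.0442% of all genes were called by limma), with 7 (7.37%) at an unadjusted p under 0.05, against 5.03% of all genes. These counts of 0 are close to what the share over all genes gives for so few genes. In IP, 75 of the 93 had a log2 difference of less than 0.2 in size, and the largest was 0.52. The largest in INPUT was that of the immediate early gene Fos, a reported target, at 1.14 (SE 0.29, adjusted p = 0.40 in limma), which is named for its value. The CCR4-NOT complex, the deadenylase brought in by the family, had a median log2 difference of −0.03 in IP over 11 subunits and of 0.04 in INPUT, beside −0.0036 and −0.0025 for all genes. The regulators upstream, which are the p38 kinases, MK2, the phosphatase Dusp1 and the 14-3-3 genes, had medians of −0.05 and −0.04 over 14 and 15 genes. Of the 24 target transcripts reported for the family, 14 passed the filter in IP, with a median of −0.09, and 15 in INPUT, with a median of 0.02.

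**Figure D4:**
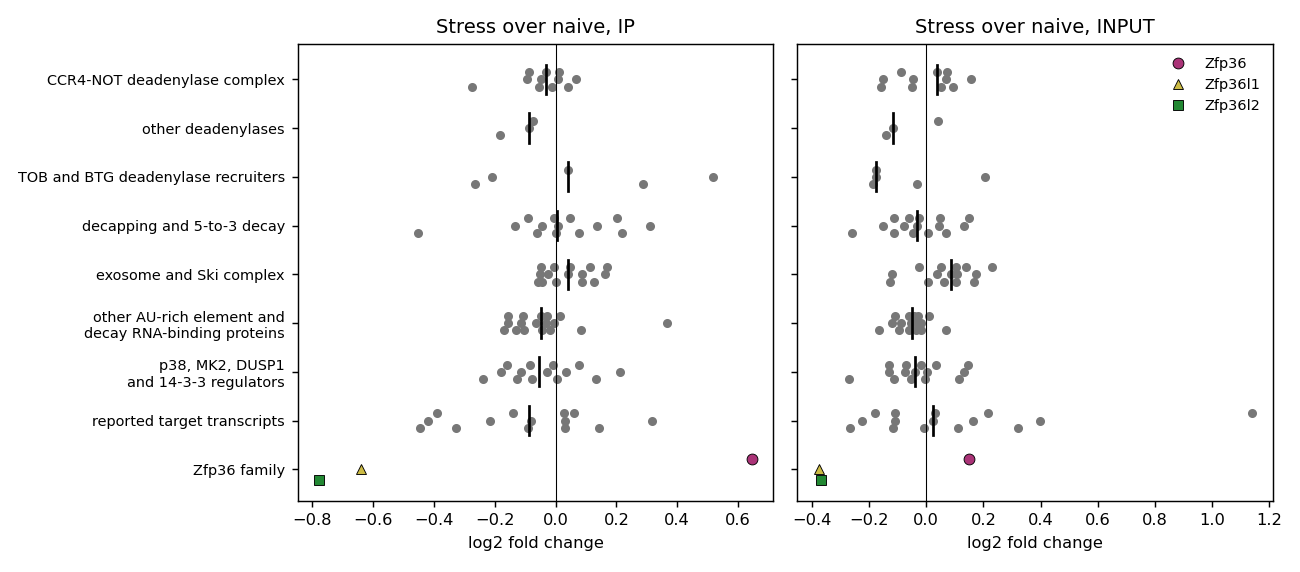
Log2 fold change of stress over naïve (x axis) for each tested gene of the 8 lists (grey points, with a black line at the median of the list) and for the 3 members in the bottom row, in IP on the left and INPUT on the right, each with its own range of the axis. The listed genes lie between −0.45 and 0.52 in IP, where Zfp36l1 and Zfp36l2 are at −0.64 and −0.78.

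The same lists were compared between IP and INPUT in naïve mice. Of 95 listed genes tested, 18 were higher in IP (18.9%) and 66 lower (69.5%), close to the 23.7% higher and 64.0% lower of all genes. With libraries rescaled by their median ratio, 41.1% were higher and 40.0% lower, against 42.0% and 42.2% of all genes, so the directions below hold for reads scaled to library totals. Of the 11 CCR4-NOT subunits measured, 10 were lower and 0 higher, with a median log2 ratio of −0.66 beside −0.64 for all genes, and after rescaling 4 were lower and 4 higher. Cnot7, a catalytic deadenylase, had the lowest ratio at −1.79 (SE 0.09). Of the 15 genes of the exosome and the Ski complex, 4 were higher and 7 lower with a median of 0.03, and after rescaling 9 were higher and 2 lower. Of 17 other RNA-binding proteins of AU-rich elements and decay, 15 were lower and 1 higher, and after rescaling 7 were lower and 7 higher. The 1 higher gene, Zc3h12a, passed the filter only through its level in IP (1.45 CPM, against 0.562 CPM in INPUT), so its direction was fixed by the filter. The neuronal Elavl2 and Elavl4, which bind AU-rich elements and are known to stabilise mRNAs, were lowest at −3.43 (SE 0.09) and −3.16 (SE 0.10). Among 14 regulators, 3 were higher and 9 lower (5 and 7 after rescaling), with the highest ratio in Mapkapk3, a kinase related to MK2, at 2.35 (SE 0.15) and the lowest in Ywhah, a 14-3-3 gene, at −4.04 (SE 0.07). Of the 15 reported targets tested, 6 were higher and 8 lower (7 and 8 after rescaling), with Notch1, a receptor, at 3.93 (SE 0.09) and Ptgs2, the inducible cyclooxygenase, at −3.27 (SE 0.20). These ratios passed at an adjusted p under 0.05 in limma.

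The difference between stress and naïve IP was also set against the motif in 3′ UTRs, with no test and with the 3 members left out, since they were chosen from this comparison. Of 8000 genes without a heptamer, 13 were called higher and 6 lower, and the median log2 difference was −0.0005, where the IP fit called 0.44% of all genes. Of 2658 genes with a heptamer and no nonamer, 6 were called higher and 14 lower, with a median of −0.0083. Of 749 genes with 1 nonamer, 5 were called higher and 5 lower, with a median of −0.0145. Of 195 genes with 2 or more, 1 was called higher and 0 lower, with a median of −0.0144. The 3′ UTRs of these classes differed in length, with medians of 887.5, 2134, 2322 and 2958 bases. The quartiles of the log2 difference in IP were −0.0919 and 0.0776 without a heptamer, and −0.1082 and 0.0701 with 1 nonamer. The medians thus differed by far less than the genes within a class. In INPUT, the medians in the same order of classes were 0.0003, −0.0064, −0.0075 and −0.0121, so their order was not particular to IP.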

How the data were processed

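Per the labels and the study's methods, reads were aligned with STAR to mm10, unique reads were counted on RefSeq genes with HTSeq, and the authors deposited log2 CPM values (edgeR and limma are named, with versions not given in the sources used here). The constant added before the log was removed (the floor was −6.40 in all libraries). Of the nonzero values checked, which left out the largest read counts, 100% then were whole reads (tolerance 0.05). Tamoxifen was given 4 weeks before per the series' text and 2 weeks before per the methods. Sex (4 males and 4 females in the methods) and which IP and INPUT came from 1 mouse are not given per library, and libraries were treated as independent.

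Groups were compared with limma 3.58.1 (R 4.3.3) on log2(CPM + 0.1), with a variance trend, over genes above a mean of 1 CPM, at a Benjamini-Hochberg adjusted p under 0.05, and the fold changes are on that scale. The code was tested on simulated data. Single members and paralogue ratios had two-sided exact permutation tests over 70 labelings (SciPy 1.17.1). The members and gene lists were chosen with earlier results of these data known. Listed genes named are from the 2 highest and 2 lowest IP to INPUT ratios of a list, and profiles gave 3 genes per member, of which 1 is not reported here. Alternatives were pseudocounts of 1 and 0.01, no filter, 5 CPM, 1 FPKM, median-ratio rescaling, limma-voom on the whole reads, no trend, array weights, all 16 libraries, Xist as a covariate, each library left out, and, added after seeing the data, all GENCODE exons as length. Reads after PCR are not independent molecules, so depth limits cover counting error only.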

Additional observations from a re-analysis of the deposited data

Results flagged for a closer look

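In groups of 4 libraries, 4 values stood apart from the other 3 by the gap to their nearest neighbour as a share of the group's range, out of 24 groups of values checked, where chance gives about 1 in 20. Zfp36l2 in stress INPUT replicate 1 was at 14.1 CPM, with the others at 22.3 to 22.7 CPM. Zfp36l1 in naïve IP replicate 2 was at 59.0 CPM, against 65.8 to 66.7 CPM, and in naïve INPUT replicate 14 it was at 11.9 CPM, against 13.2 to 13.5 CPM. The log2 ratio of Zfp36l2 to Zfp36l1 in stress IP replicate 5 was 0.786, against 1.20 to 1.21.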

How the results depend on the processing

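Of 381 recomputed values, 309 kept their direction and their side of the threshold, or stayed near the main value. Zfp36l1 and Zfp36l2 remained called in IP over INPUT under all alternatives (log2 1.94 to 3.19), and neither was called in INPUT after stress under any of 19. In IP after stress they lay between −0.84 and −0.57. For Zfp36, IP over INPUT was 0.65 with median-ratio rescaling in naïve mice and −0.12 to 0.20 without single libraries (reversed without naïve IP replicate 11, −0.03, or 13, −0.12, or naïve INPUT replicate 7, −0.04). In stressed mice it was called with a pseudocount of 1 (0.41), rescaling (1.15) and array weights (0.62), and was 0.38 to 0.77 without single libraries. Zfp36 did not pass the filters of 5 CPM and 1 FPKM in any comparison and has no value under them.

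Counts of genes called after stress moved most. In INPUT, 6 became 1 without a filter, 0 without a trend, 50 with array weights, 2 with all 16 libraries and 1 to 32 without single libraries. In IP, 55 became 2, 19, 143 and 124 under the same settings, and 17 to 122 without single libraries (122 without naïve IP replicate 11, 101 without stress IP replicate 15). limma-voom called 5 and 49.

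Leaving out 1 library leaves too few labelings to pass, so the adjusted p of the IP to INPUT differences in the ratios to Zfp36 rose to at most 0.0857, with values of 2.09 to 2.41 and 2.38 to 2.64 in naïve mice and 1.24 to 1.65 and 1.31 to 1.77 in stressed mice, for Zfp36l1 and Zfp36l2 over Zfp36. For the ratio of Zfp36l2 to Zfp36l1, differences near 0 changed sign. Its stress difference in INPUT was −0.0064 with a pseudocount of 1 and −0.0821 to 0.11 without single libraries (−0.03, −0.02, −0.01 and −0.0821 without naïve replicates 3 and 7 and stress replicates 10 and 12), and its difference between IP and INPUT in stressed mice was −0.0003 (without stress INPUT replicate 1) to 0.21. With all GENCODE exons as length, the ratios per kb to Zfp36 in naïve IP were 43.8 and 86.8. The causes were not tested. No paired analysis was possible because no replicate number is shared between groups.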
